A study of Rattus norvegicus with 20 samples.

Results

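The DNA replication machinery was followed here in renal vasculature isolated from neonatal and adult male Wistar Kyoto rats. Its members were the array transcripts whose single gene symbol names a subunit of the origin recognition complex, the MCM helicase and its loaders and activators, primase, the replicative polymerases alpha, delta and epsilon, the sliding clamp and its loader, the single-strand binding protein RPA, the Okazaki fragment enzymes or the enzymes of deoxynucleotide supply. The name pattern found 53 transcripts of 49 genes, among 18511 transcripts of 18166 genes with 1 symbol. For the 4 genes with 2 transcripts (Mcm3, Mcm4, Prim1 and Rrm2), the transcript with the higher mean over all arrays was used. Members were taken by name alone, but the list was drawn up with earlier results of these data known. Mcm9, Rrm1 and Tk1 had no transcript of their own symbol and were not analysed here.

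RNA of each rat was hybridized to 1 RaGene2.0_st array, with 5 rats in each of 4 groups. In maternal separation (MatSep), a stress of early life, all pups of a litter spent 3 h of each day away from the dam, in a clean cage in an incubator, from P2 to P14 (P is the postnatal day). The groups were P10 controls, P10 MatSep rats, P180 controls and P180 MatSep rats, so the P10 MatSep pups were sampled within the separation period and the P180 MatSep rats long after it. By the methods the controls were non-handled litters that stayed with the dam, whereas the sample labels call them littermates. The litter of each rat is not in the labels, so p-values measure the spread between rats taken as independent. Neonatal kidneys were grated over a finer sieve than adult ones to free the vessels, and that step cannot be told apart from age.

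Replication of a chromosome starts at origins marked by the origin recognition complex (ORC), on which Cdc6 and Cdt1 load the MCM ring in G1. In S phase, Cdc45 and the GINS complex bind the ring and turn it into the active helicase, polymerase alpha with primase lays down primers, and polymerases epsilon and delta extend them on the leading and lagging strand with the help of the clamp PCNA. Many of these genes are transcribed under the control of E2F factors as cells enter the cycle, and quiescent cells hold little of the mRNA of several of them. In the rat, nephrons and their vessels continue to form after birth.

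Many of the members' promoters, but not all, show the letters E2F factors are known for, and some are printed here for that reason. Of the 49 members, 40 have an entry among the RefSeq promoters of the rat build GRCr8 (250 bases before to 50 after the start that table uses). The other 9 members are Cdc6, Gins4, Mcm3ap, Mcm4, Orc1, Orc4, Rpa3, Rrm2 and Rrm2b. The E2F letters searched were TTTCCCGC, TTTCGCGC, TTTGCCGC and TTTGGCGC on both strands. An exact match to at least 1 of them was found in 21 of these 40 promoters (52.5%), and near matches were not counted. The share was 2.25% of all 27457 promoters of the same length and 3.08% of the 14505 that belong to genes with 1 symbol on the array. In 29 of the 40 that start lies inside the span RefSeq gives for the gene, and in 11 it is the first base of the span. The 5 stretches printed come from the 11, to show 3 members with the letters and 2 without them. Their 60 bases end at the base before the start, except for Mcm6, whose letters lie farther upstream and for which bases -160 to -101 are given. Capitals mark the E2F letters, and a run of 12 capitals is 2 overlapping matches on opposite strands.
Mcm5, chr19:13488753-13488812, plus strand: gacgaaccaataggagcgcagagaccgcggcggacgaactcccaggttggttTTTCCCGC
Mcm6, chr13:42404453-42404512, minus strand: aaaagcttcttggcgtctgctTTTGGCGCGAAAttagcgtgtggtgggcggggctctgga
Gins1, chr3:160184860-160184919, plus strand: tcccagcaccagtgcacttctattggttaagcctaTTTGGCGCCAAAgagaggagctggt
Pcna, chr3:139955821-139955880, minus strand: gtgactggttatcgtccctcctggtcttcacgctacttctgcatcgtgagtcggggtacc
Pole3, chr5:80992743-80992802, minus strand: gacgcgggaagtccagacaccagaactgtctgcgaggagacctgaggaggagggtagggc

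The first 4 stretches belong to genes that were lower in adults of both treatments. The last belongs to Pole3, which was higher in adult controls and did not pass in MatSep rats. Pcna and Pole3 have none of the letters in the whole window. Of the 3 members with an entry that were higher in adult controls, only Pole4 has them. Among the 21 members with the letters, 19 were lower at P180 in controls, Pole4 was higher and Pold3 did not pass, with a median log2 difference of -1.01. Among the 19 members without them, 15 were lower and 2 were higher, with a median of -0.71. Of all transcripts, 20.6% were lower and 24.7% higher in the same comparison. The CCAAT box was found in 23 of the 40 member promoters (57.5%) and in 37.7% of all promoters. A match is a description of the letters and no test was made of either motif.

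The deposited values are intensities normalized between arrays, and log2 of them is used throughout, so levels are compared within a gene only. Each comparison is a difference of 2 group means on the log2 scale, estimated by limma with its standard error (SE), and a gene passed when its p-value, adjusted over all 18511 transcripts, was under 0.05. The median log2 intensity of an array lay between 6.00 and 6.18 over the 20 arrays. The labels number the samples in 4 unbroken runs, of which P10 rats have 14 to 17 and 19 to 24 and P180 rats 1 to 6 and 8 to 11. Control and MatSep rats are equally many in each run.

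Renal vessel preparations of adult control rats held less mRNA of most members of the replication machinery than those of neonates. Of 49 members, 41 were lower at P180 than at P10 (20.6% of all transcripts were), 4 were higher (24.7% of all transcripts were) and 4 did not pass. The median difference of the members was -0.82 on the log2 scale, against 0.05 over all transcripts. In 21 members the fall was larger than 1 on the log2 scale. For 36 members every adult control lay below every neonatal control, which was so for 15% of all transcripts. Pold4 was the member with every adult control above every neonatal one (16.3% of all transcripts). In bulk RNA, a smaller share of replicating cells and less RNA per cell cannot be told apart.

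**Figure D1:**
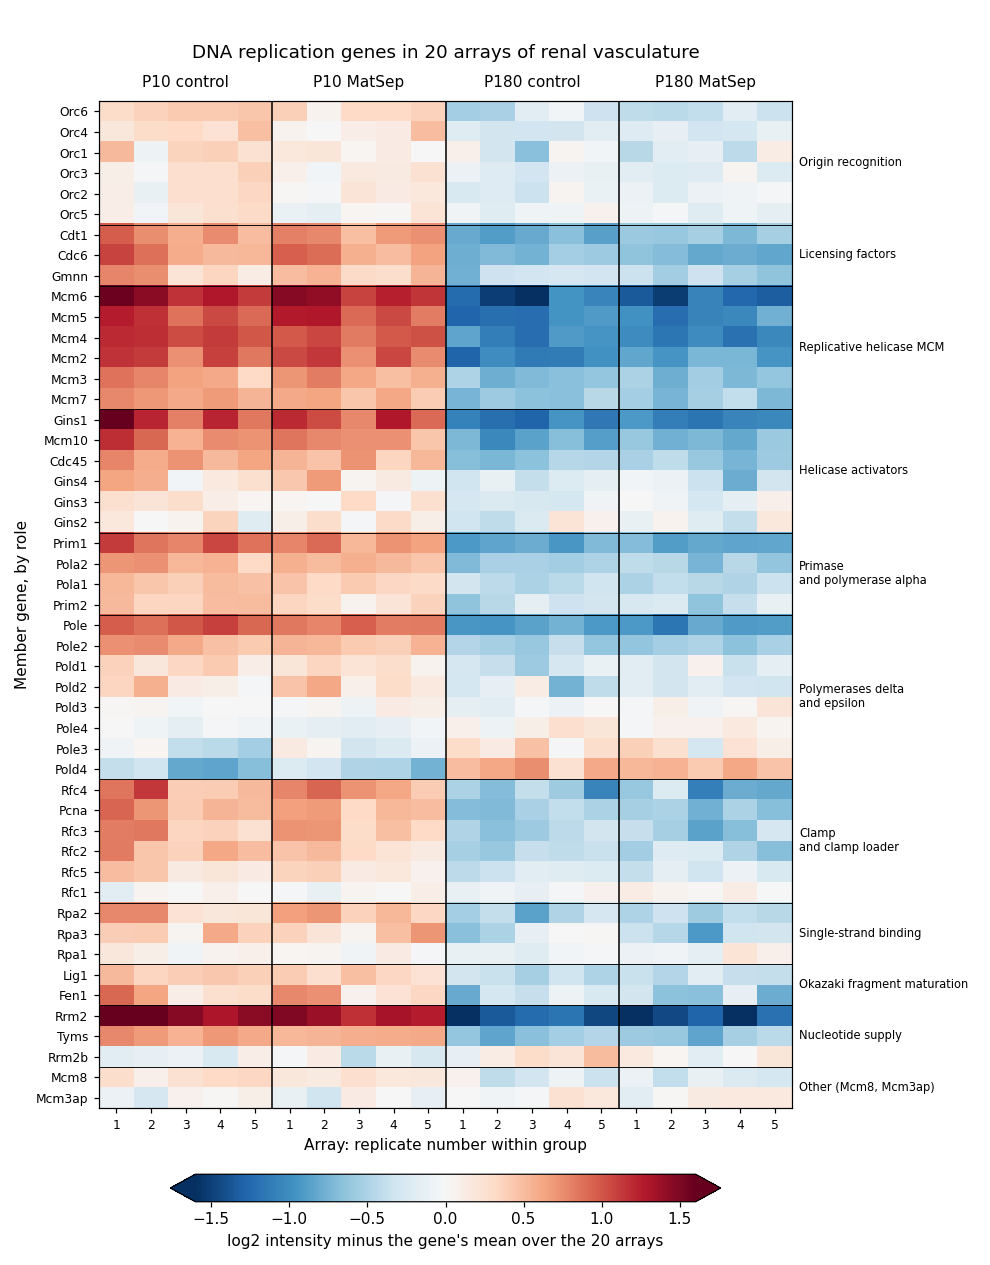
Log2 intensity of the 49 members (rows, by role) in the 20 arrays (columns, by group), shown as the deviation from each gene's mean over the arrays. Rrm2, Mcm6, Gins1, Mcm5, Mcm4, Mcm2, Pole and Prim1 change most between P10 (red) and P180 (blue) in controls, Pold4 runs the other way, and control and MatSep arrays of the same age look alike.

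The origin recognition complex had the smallest median fall among the roles of which every measured member passed. All 6 ORC genes were lower at P180 in controls, with a median log2 difference of -0.41. The largest fall was that of Orc6, the smallest subunit, which is only loosely bound to the others. Log2 intensities of Orc6 were 6.75, 6.82, 6.88, 6.88 and 6.91 in the P10 controls and 5.91, 5.94, 6.28, 6.41 and 6.13 in the P180 controls. In MatSep rats they were 6.84, 6.51, 6.77, 6.78 and 6.82 at P10 and 6.05, 6.02, 6.06, 6.28 and 6.11 at P180. All adult values lay below all neonatal ones. The difference was -0.71 (SE 0.09, adjusted p = 1.51e-06) in controls and -0.64 (SE 0.09, adjusted p = 5.86e-06) in MatSep rats. The smallest fall in controls was that of Orc5, -0.23 (adjusted p = 0.019). In MatSep rats Orc3, Orc4 and Orc6 passed, and Orc1, Orc2 and Orc5 stood at -0.31, -0.19 and -0.10 (adjusted p of 0.062, 0.0678 and 0.272).

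The 3 licensing factors fell together, with a median difference of -1.40 in controls and -1.29 in MatSep rats. Cdt1, which brings the MCM ring to ORC and is destroyed once S phase begins, was highest in the neonates. Its log2 intensities were 7.36, 7.15, 6.98, 7.16 and 6.89 in the P10 controls and 5.59, 5.51, 5.60, 5.73 and 5.53 in the P180 controls. MatSep rats had 7.20, 7.17, 6.88, 7.08 and 7.13 at P10 and 5.81, 5.80, 5.86, 5.68 and 5.87 at P180. The ages were separated by over 1 log2 unit in both treatments. The difference was -1.52 (SE 0.08, 2.86-fold, adjusted p = 4.19e-12) in controls and -1.29 (SE 0.08, adjusted p = 5.44e-11) in MatSep rats. Cdc6, the ATPase that loads the ring with Cdt1, fell from 6.67 ± 0.25 (mean and SD, n = 5) to 5.27 ± 0.10 in controls and from 6.66 ± 0.20 to 5.19 ± 0.08 in MatSep rats, by log2 differences of -1.40 (SE 0.11, adjusted p = 1.2e-09) and -1.47 (SE 0.11, adjusted p = 4.9e-10). Geminin (Gmnn), the inhibitor of Cdt1, fell with the factor it restrains, by -0.84 in controls and -0.92 in MatSep rats.

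The MCM helicase was the complex with the largest median fall. All 6 subunits were lower at P180, with a median of -2.10 in controls and -1.92 in MatSep rats. Mcm6 led, with log2 intensities of 9.35, 9.22, 8.94, 9.05 and 8.89 in the P10 controls and 6.55, 6.26, 6.12, 6.81 and 6.71 in the P180 controls. MatSep rats had 9.24, 9.20, 8.85, 9.02 and 8.92 at P10 and 6.43, 6.25, 6.71, 6.52 and 6.45 at P180. No adult array came within 2 log2 units of a neonatal one. Mcm6 differed by -2.60 (SE 0.13, 6.05-fold, adjusted p = 9.32e-13) in controls and by -2.57 (SE 0.13, 5.94-fold, adjusted p = 1.26e-12) in MatSep rats.

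The other subunits of the ring followed in the order Mcm5, Mcm4, Mcm2, Mcm3 and Mcm7 in controls. Mcm5 went from 8.72 ± 0.17 to 6.56 ± 0.17 in controls (log2 difference -2.16, SE 0.11, adjusted p = 1.6e-12) and from 8.73 ± 0.21 to 6.65 ± 0.17 in MatSep rats (-2.08). For Mcm4 the control means were 9.96 ± 0.09 and 7.84 ± 0.15 (-2.11, SE 0.07, adjusted p = 6.46e-15) and the MatSep means 9.82 ± 0.09 and 7.77 ± 0.09 (-2.05). Mcm2 stood at 8.83 ± 0.19 and 6.74 ± 0.13 in controls (-2.09, SE 0.10, adjusted p = 6.18e-13) and at 8.79 ± 0.19 and 7.003 ± 0.11 in MatSep rats (-1.79). The falls of these 3 subunits in controls differed by less than 1 SE from their neighbours, so their order is not resolved. Mcm3 went from 7.99 ± 0.21 to 6.69 ± 0.11 in controls (-1.30, SE 0.09, adjusted p = 3.58e-10) and from 7.98 ± 0.13 to 6.71 ± 0.12 in MatSep rats (-1.28). Mcm7 fell by -1.28 and -1.13. Mcm8, a relative of the ring subunits that works in DNA repair, fell less, with log2 intensities of 6.09, 5.90, 6.06, 6.13 and 6.15 in the P10 controls and 5.88, 5.41, 5.52, 5.74 and 5.47 in the P180 controls. In MatSep rats Mcm8 was at 6.00, 5.97, 6.09, 5.98 and 5.99 and 5.72, 5.42, 5.70, 5.58 and 5.54. Its difference was -0.47 (adjusted p = 0.000117) in controls and -0.41 (adjusted p = 0.00038) in MatSep rats, with no overlap between the ages. Mcm3ap is caught by the name pattern but encodes a protein of mRNA export, not a ring subunit. It stood at 7.73 ± 0.15 and 7.83 ± 0.13 in controls (0.10, SE 0.09, adjusted p = 0.384) and at 7.68 ± 0.17 and 7.83 ± 0.14 in MatSep rats (0.15, adjusted p = 0.184).

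The helicase activators spread widely. Of 6, 5 were lower at P180 in controls, from -2.28 for Gins1 to -0.39 for Gins3, although the 4 GINS proteins form 1 complex. Gins1 had log2 intensities of 7.39, 6.94, 6.53, 6.93 and 6.56 in the P10 controls and 4.63, 4.51, 4.43, 4.78 and 4.57 in the P180 controls. MatSep rats had 6.91, 6.76, 6.48, 7.004 and 6.63 at P10 and 4.79, 4.62, 4.55, 4.66 and 4.69 at P180. It was the single member with a mean under 5 in the adult controls. Gins1 differed by -2.28 (SE 0.13, 4.87-fold, adjusted p = 1.2e-11) in controls and -2.10 (SE 0.13, adjusted p = 4.81e-11) in MatSep rats. Gins2 did not pass in either treatment, with means of 5.59 ± 0.20 and 5.37 ± 0.27 in controls (-0.22, SE 0.13, adjusted p = 0.172) and 5.66 ± 0.14 and 5.42 ± 0.22 in MatSep rats (-0.24, adjusted p = 0.114). It passed in both after a further quantile normalization, at -0.31 and -0.38. Mcm10, which despite its name is no ring subunit but helps the helicase to start, fell from 6.75 ± 0.23 to 5.09 ± 0.14 in controls (-1.66, SE 0.10, adjusted p = 3.33e-11) and from 6.63 ± 0.16 to 5.22 ± 0.10 in MatSep rats (-1.41). Cdc45, the partner of GINS on the ring, fell by -1.25 and -1.09.

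All 4 genes of primase and polymerase alpha were lower at P180 in both treatments, with medians of -0.99 and -0.93. Prim1, the catalytic primase subunit, had log2 intensities of 9.79, 9.53, 9.46, 9.74 and 9.54 in the P10 controls and 7.75, 7.82, 7.88, 7.74 and 7.96 in the P180 controls. MatSep rats had 9.45, 9.58, 9.20, 9.39 and 9.32 at P10 and 7.97, 7.77, 7.85, 7.83 and 7.84 at P180. The ages did not overlap, and the neonatal MatSep values reached lower than those of the neonatal controls. Prim1 differed between the ages by -1.78 (SE 0.08, 3.44-fold, adjusted p = 1.72e-13) in controls and -1.54 (SE 0.08, adjusted p = 1.87e-12) in MatSep rats. Pola2, Pola1 and Prim2 fell by -1.13, -0.86 and -0.81 in controls.

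Polymerases delta and epsilon were divided within each enzyme. Of their 8 genes, 4 were lower in adult controls (Pole, Pole2, Pold1 and Pold2), 3 were higher (Pold4, Pole3 and Pole4) and Pold3 did not pass. Of all transcripts, 20.6% were lower and 24.7% higher. In adult MatSep rats 4 of the 8 were lower and 2 higher, where 22.2% and 27.4% of all transcripts were. Pole, the catalytic subunit of polymerase epsilon, had log2 intensities of 7.85, 7.76, 7.86, 7.97 and 7.80 in the P10 controls and 5.94, 5.93, 6.02, 6.11 and 5.96 in the P180 controls. MatSep rats had 7.72, 7.65, 7.83, 7.70 and 7.70 at P10 and 5.95, 5.72, 6.07, 5.96 and 5.99 at P180. The spread within a group was small beside the gap between the ages. Pole differed by -1.85 (SE 0.06, 3.62-fold, adjusted p = 7.34e-15) in controls and -1.78 (SE 0.06, adjusted p = 1.52e-14) in MatSep rats. Pole2, its second subunit, fell by -1.12, and Pold1 and Pold2, the catalytic and second subunits of polymerase delta, by -0.60 and -0.52 in controls. Pold3, which also serves break-induced replication and translesion synthesis, stood at 8.66 ± 0.03 and 8.57 ± 0.08 in controls (-0.09, SE 0.06, adjusted p = 0.23) and at 8.69 ± 0.09 and 8.70 ± 0.11 in MatSep rats (0.02, adjusted p = 0.822).

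Pold4, the small accessory subunit of polymerase delta that is degraded after DNA damage, was the only member to rise by more than 1 on the log2 scale in controls. Its log2 intensities were 6.82, 6.87, 6.38, 6.34 and 6.52 in the P10 controls and 7.68, 7.82, 7.93, 7.44 and 7.81 in the P180 controls. MatSep rats had 6.98, 6.89, 6.71, 6.70 and 6.44 at P10 and 7.72, 7.75, 7.61, 7.81 and 7.65 at P180. Every adult lay above every neonate. The rise was 1.15 (SE 0.11, 2.22-fold, adjusted p = 6.3e-08) in controls and 0.96 (SE 0.11, 1.95-fold, adjusted p = 7.06e-07) in MatSep rats. Pole3 and Pole4 encode the histone-fold subunits of polymerase epsilon, and Pole3 is also part of a chromatin-remodelling complex. Pole3 stood at 8.03, 8.11, 7.69, 7.65 and 7.53 in the P10 controls and 8.38, 8.21, 8.55, 8.06 and 8.36 in the P180 controls. In MatSep rats it stood at 8.22, 8.12, 7.78, 7.85 and 7.99 and 8.47, 8.34, 7.79, 8.31 and 8.18. The ages overlapped in both treatments, and the rise of Pole3 was 0.51 (SE 0.13, adjusted p = 0.00358) in controls and did not pass in MatSep rats (0.22, SE 0.13, adjusted p = 0.165). Without P180 MatSep replicate 3, which had the lowest adult value, it passed there too, at 0.33 (adjusted p = 0.0338). Pole4 stood at 8.23, 8.16, 8.08, 8.20 and 8.16 in the P10 controls and 8.30, 8.14, 8.32, 8.49 and 8.41 in the P180 controls. In MatSep rats it stood at 8.12, 8.08, 8.06, 8.09 and 8.18 and 8.19, 8.29, 8.29, 8.37 and 8.26, the other gene besides Pold4 whose ages were fully separated upwards there (17.1% of all transcripts). Its rise was small, 0.17 (SE 0.06, adjusted p = 0.0313) and 0.18 (SE 0.06, adjusted p = 0.0204). The call in controls was lost without P180 control replicate 4 or 5 or without P10 control replicate 2, 3 or 5 (adjusted p between 0.0517 and 0.0965), and that in MatSep rats without P180 MatSep replicate 4 (adjusted p = 0.0537).

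The sliding clamp and 4 of the 5 subunits of its loader RFC were lower in adult controls, and 5 of these 6 genes were lower in adult MatSep rats. Rfc4 had log2 intensities of 7.82, 8.09, 7.35, 7.36 and 7.47 in the P10 controls and 6.45, 6.27, 6.58, 6.39 and 5.90 in the P180 controls. MatSep rats had 7.75, 7.89, 7.68, 7.58 and 7.36 at P10 and 6.35, 6.75, 5.86, 6.17 and 6.14 at P180. The spread within a group was wide, yet the ages did not overlap. Rfc4 differed by -1.30 (SE 0.16, adjusted p = 1.71e-06) in controls and -1.40 (SE 0.16, adjusted p = 6.36e-07) in MatSep rats. Pcna, the clamp itself, went from 10.45 ± 0.20 to 9.26 ± 0.13 in controls, a difference of -1.19 (SE 0.10). Rfc3 and Rfc2 were each 2.01-fold lower in adult controls, and Rfc5 fell by -0.55. Rfc1, the large subunit that opens the clamp for replication, stood at 9.10 ± 0.09 and 9.06 ± 0.08 in controls (-0.04, SE 0.06, adjusted p = 0.596) and at 9.11 ± 0.09 and 9.17 ± 0.06 in MatSep rats (0.06, adjusted p = 0.425), and its 95% intervals of -0.17 to 0.08 and -0.07 to 0.18 lay above the estimates of the other 4 subunits.

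RPA, which coats single-stranded DNA in replication and in repair, fell unevenly. Rpa2 had log2 intensities of 7.84, 7.84, 7.30, 7.25 and 7.26 in the P10 controls and 6.52, 6.69, 6.21, 6.59 and 6.80 in the P180 controls. MatSep rats had 7.73, 7.77, 7.44, 7.60 and 7.40 at P10 and 6.58, 6.74, 6.50, 6.68 and 6.63 at P180. No adult reached a neonate. Rpa2 differed by -0.94 (SE 0.13, adjusted p = 4.42e-06) in controls and -0.96 (SE 0.13, adjusted p = 2.91e-06) in MatSep rats. Rpa3, the smallest subunit, fell by -0.62 and -0.83, and Rpa1, the large DNA-binding subunit, by -0.17 in controls (adjusted p = 0.0433), while in MatSep rats it stood at -0.03 (adjusted p = 0.766).

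Both enzymes of Okazaki fragment maturation were lower in adults. DNA ligase 1 (Lig1), which seals the fragments, had log2 intensities of 8.82, 8.66, 8.70, 8.75 and 8.69 in the P10 controls and 8.01, 7.95, 7.78, 7.99 and 7.81 in the P180 controls. MatSep rats had 8.71, 8.58, 8.79, 8.64 and 8.54 at P10 and 7.95, 7.83, 8.12, 7.94 and 7.93 at P180. The ages did not overlap. Lig1 differed by -0.82 (SE 0.07, adjusted p = 3.27e-09) and -0.70 (SE 0.07, adjusted p = 3.19e-08). Fen1, the flap endonuclease, differed by -0.79 and -0.94, with the largest SE of all members (0.17).

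Deoxynucleotide supply held the member with the largest age difference. Rrm2, the small subunit of ribonucleotide reductase that is made in S phase, had log2 intensities of 9.96, 9.94, 9.74, 9.58 and 9.73 in the P10 controls and 6.70, 6.94, 7.06, 7.12 and 6.83 in the P180 controls. MatSep rats had 9.77, 9.68, 9.46, 9.61 and 9.55 at P10 and 6.61, 6.84, 7.02, 6.59 and 7.09 at P180. The fall was -2.86 (SE 0.11, 7.26-fold, adjusted p = 1.71e-14) in controls and -2.78 (SE 0.11, 6.88-fold, adjusted p = 2.77e-14) in MatSep rats. Another transcript of the array is annotated to Rrm2 together with a close copy of it, so the share of signal from the copy is uncertain. Thymidylate synthase (Tyms) fell by -1.29 and -1.17. Rrm2b, the p53-inducible alternative small subunit that serves resting cells, stood at 8.42, 8.47, 8.51, 8.36 and 8.71 in the P10 controls and 8.47, 8.73, 8.89, 8.81 and 9.11 in the P180 controls. In MatSep rats it stood at 8.59, 8.74, 8.17, 8.49 and 8.35 and 8.76, 8.64, 8.43, 8.61 and 8.79. The ages overlapped, and Rrm2b was higher in adults by 0.31 (SE 0.11, adjusted p = 0.0306) in controls and differed by 0.18 (SE 0.11, adjusted p = 0.199) in MatSep rats. The call in controls was lost without P180 control replicate 3 or 5 or P10 control replicate 1, 2 or 4 (adjusted p between 0.0513 and 0.0988).

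**Figure D2:**
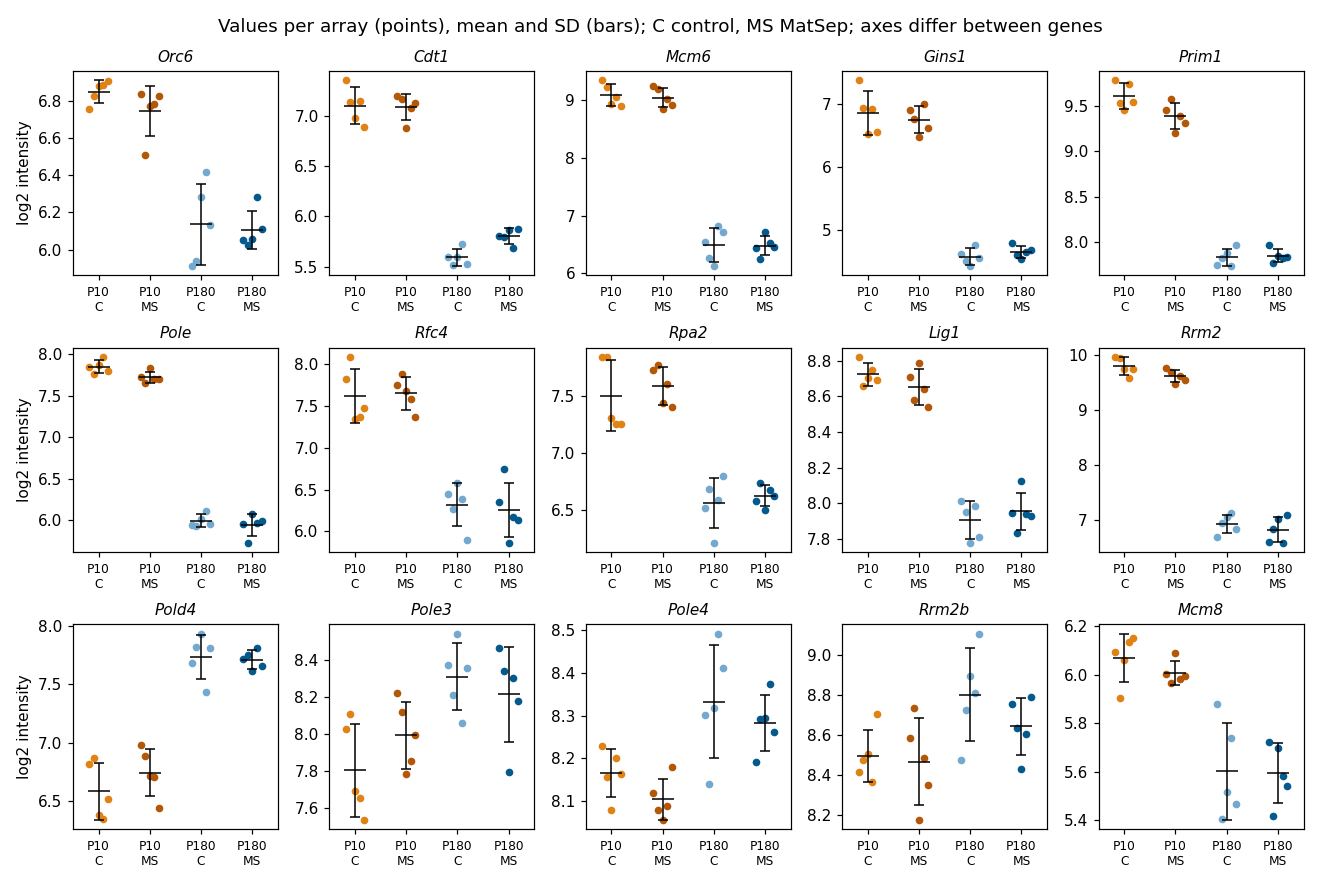
Log2 intensity per array (points) with the mean and SD of each group (bars) for the member with the largest age difference in each role and for the members higher in adults; vertical axes differ between genes and do not start at 0. Rrm2 and Mcm6 drop by more than 2 log2 units with no overlap between ages, while Pole3, Pole4 and Rrm2b rise with overlapping control groups.

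The same age comparison in MatSep rats gave 37 members lower at P180 (22.2% of all transcripts), 2 higher (27.4% of all transcripts), namely Pold4 and Pole4, and 10 that did not pass. The median difference of the members was -0.80, against 0.07 over all transcripts. For 33 members every adult MatSep rat lay below every neonatal one (16.8% of all transcripts). The arrays of the 2 age comparisons are different rats, and whether the age difference itself changed with MatSep is the interaction described below.

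**Figure D3:**
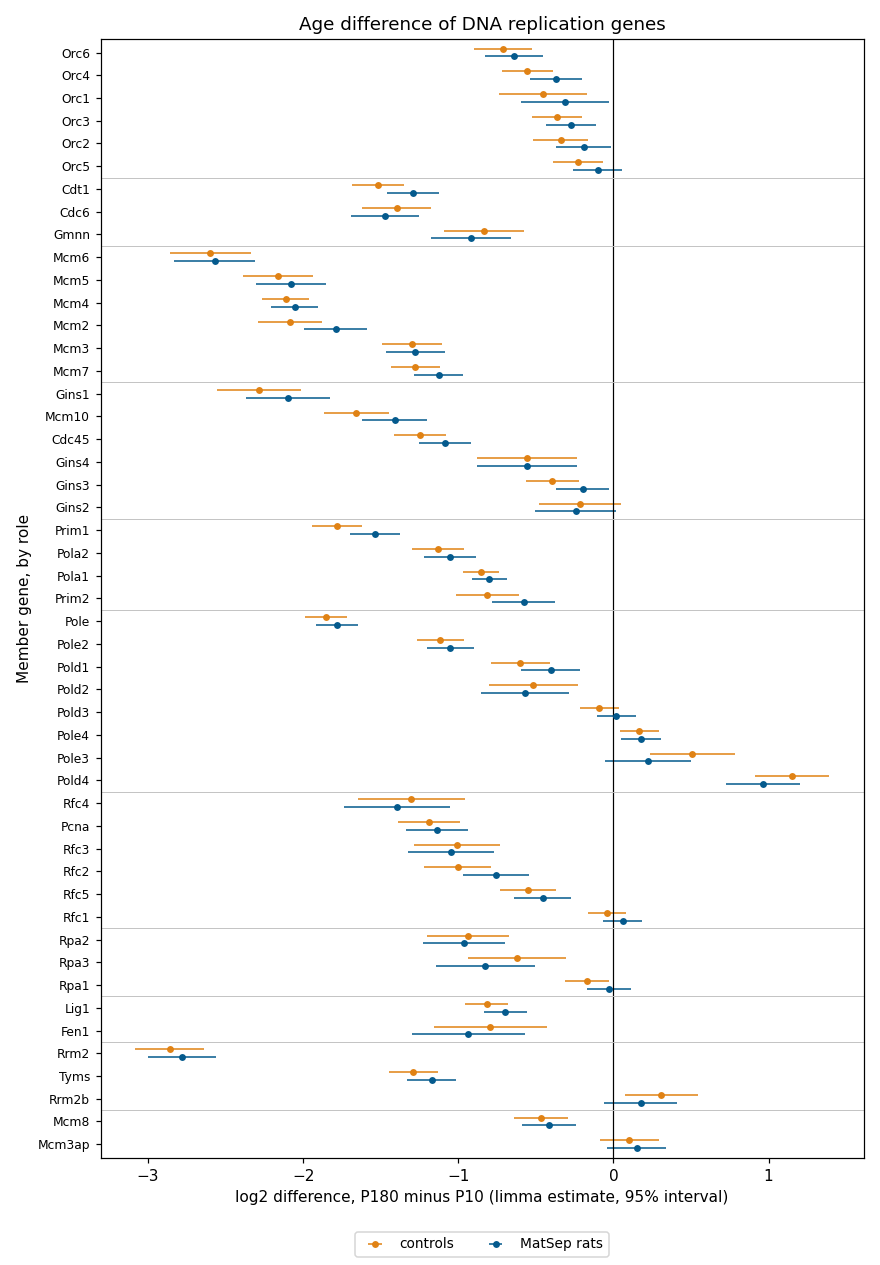
Log2 difference P180 minus P10 of each member (limma estimate with 95% interval) in controls and in MatSep rats, ordered by role. Points lie left of 0 for 44 members in controls and 42 in MatSep rats, from -2.86 for Rrm2 to 1.15 for Pold4 in controls.

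Replication genes outside the name pattern were also mostly lower in adult controls. Beside the counts of all lists below, 20.6% of all transcripts were lower and 24.7% higher in adult controls. Of 42 further replication genes 40 were measured, and 32 were lower, 2 higher and 6 did not pass, with a median of -0.96. Top2a, which untangles replicated DNA, differed by -4.17 (SE 0.12), Atad5, which unloads the clamp, by -2.40 (SE 0.08), Uhrf1, which carries methylation onto new strands, by -2.18 (SE 0.10), and Ticrr, which helps Cdc45 to load, by -1.84 (SE 0.08). Samhd1, which breaks down deoxynucleotides, was higher by 1.12 (SE 0.10). Among E2F factors and pocket proteins, 12 of 13 were measured, 8 were lower and 1 was higher, with a median of -0.47. E2f7 (-1.92, SE 0.11), Rbl1 (-1.46, SE 0.06), E2f8 (-1.17, SE 0.10) and E2f1 (-1.05, SE 0.10) fell, and Rbl2, the pocket protein of resting cells, rose by 0.31 (SE 0.05). Of 15 measured mitotic genes 15 were lower, with a median of -2.61, and Mki67, the marker of cycling cells, differed by -4.11 (SE 0.08). A list of polymerases and ligases of repair and of mitochondria, which includes the mitochondrial RNA polymerase Polrmt, was divided. Of its 15 measured genes 7 were lower and 4 higher, with a median of 0.10. The share that was higher was near that of all transcripts (24.7%). Polq (-0.75, SE 0.07), Rev3l (-0.71, SE 0.07), Primpol (-1.10, SE 0.11) and Polb (-0.52, SE 0.07) fell, whereas Polm (0.62, SE 0.15) and Polrmt (0.41, SE 0.07) rose.

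The signal of several cell type markers also differed between the ages. In bulk RNA, a different mix of cells and a different level per cell cannot be told apart. Beside the counts of markers below, 20.6% of all transcripts were lower and 24.7% higher in adult controls. Summed linear intensities of 4 smooth muscle markers were 2873 to 9138 in the P10 controls and 10202 to 13775 in the P180 controls, and 3 of the 4 were higher in adults. Those of 4 macrophage markers were 322 to 474 and 1090 to 1372 (3 of 4 higher), of 3 lymphocyte markers 189 to 212 and 226 to 293 (3 of 3 higher), and of 3 erythroid markers 672 to 888 and 1203 to 1688 (2 of 3 higher). Fibroblast markers went the other way, from 8978 to 14141 down to 3465 to 5531 (4 of 4 lower). Nephron progenitor markers were at 1180 to 1512 and 820 to 1063 (3 of 5 lower and 1 higher). Endothelial markers overlapped, at 6238 to 8725 and 5033 to 7459 (2 of 4 lower). The array also carried signal of tubule and podocyte genes at both ages, with 4 proximal tubule markers at 12493 to 15477 and 11062 to 16927 (1 of 4 higher), 4 distal nephron markers at 17694 to 22383 and 18401 to 20159 (2 of 4 lower and 1 higher) and 2 podocyte markers at 3832 to 4717 and 3993 to 5030 (0 of 2). In MatSep rats the P10 and P180 ranges were 5115 to 10118 and 9840 to 17149 for smooth muscle, 404 to 585 and 953 to 1235 for macrophages, 13226 to 18257 and 3570 to 5595 for fibroblasts, and 1235 to 1422 and 890 to 998 for nephron progenitors. Pecam1, Kdr and Acta2 had no transcript of their own symbol. The part of these markers in the age difference of the members was not tested.

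Maternal separation changed no member past the threshold at P10. MatSep rats differed from controls by a median of -0.06 over the members, against -0.005 over all transcripts, and 40 of the 49 differences were negative (81.6%, against 52.0% of all transcripts). By limma, 0 members were lower (0% of all transcripts) or higher (0.0162% of all transcripts). At an unadjusted p under 0.05, 3 members were lower and 0 higher, against 9.67% of all transcripts in either direction. Every 95% interval lay within 0.5 log2 units of 0. The smallest p belonged to Prim1, whose values are given above, at -0.22 (SE 0.08, adjusted p = 0.334, 95% interval -0.39 to -0.06). Next came Rfc2 at -0.22 (SE 0.10, adjusted p = 0.5), Orc5 at -0.16 (SE 0.08, adjusted p = 0.505) and Pole at -0.13 (SE 0.06, adjusted p = 0.545). In no member were the 5 MatSep values all below (0.945% of all transcripts) or all above (0.724%) the 5 control values. Within the runs of sample numbers the median MatSep difference of the members was -0.10 in numbers 14 to 17 and -0.04 in 19 to 24, and Prim1 was lower in both, by -0.14 and -0.28.

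In adults no member passed either. MatSep rats differed from controls by a median of 0.02 over the members at P180, 23 differences were negative (46.9%, against 50.7% of all transcripts), and 0 members were lower (0.0162% of all transcripts) or higher (0.0162%). At an unadjusted p under 0.05, 3 members were higher and 0 lower, against 5.76% of all transcripts in either direction. Mcm2 had log2 intensities of 6.56, 6.85, 6.71, 6.72 and 6.88 in the P180 controls and 7.01, 6.89, 7.11, 7.11 and 6.89 in the P180 MatSep rats. It was the only member with every adult MatSep rat above every control (0.34% of all transcripts), and none had all below (0.47%). The difference of Mcm2 was 0.26 (SE 0.10, adjusted p = 0.659, 95% interval 0.05 to 0.46), and it was 0.30 in numbers 1 to 6 and 0.20 in numbers 8 to 11. Cdt1 differed by 0.21 (SE 0.08, adjusted p = 0.659, 95% interval 0.05 to 0.38), Pold3 by 0.13 (SE 0.06, adjusted p = 0.814) and Rfc1 by 0.11 (SE 0.06, adjusted p = 0.934). For 47 of 49 members the 95% interval lay within 0.5 log2 units of 0, and Rpa3 (-0.53 to 0.11) and Fen1 (-0.52 to 0.21) reached beyond it.

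The effect of MatSep was not shown to differ between the ages for any member, which is equally the test of whether the age difference differs with MatSep. The interaction passed for 0 members in either direction (0% of all transcripts in each), and at an unadjusted p under 0.05 for 2, against 9.04% of all transcripts. Prim1 had the smallest p, with a P180 effect above the P10 effect by 0.25 (SE 0.11, adjusted p = 0.501). Mcm2 followed at 0.30 (SE 0.14, adjusted p = 0.536), then Cdt1 at 0.23 (SE 0.11, adjusted p = 0.577) and Mcm10 at 0.25 (SE 0.14, adjusted p = 0.631). The 95% intervals of 38 members lay within 0.5 log2 units of 0.

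**Figure D4:**
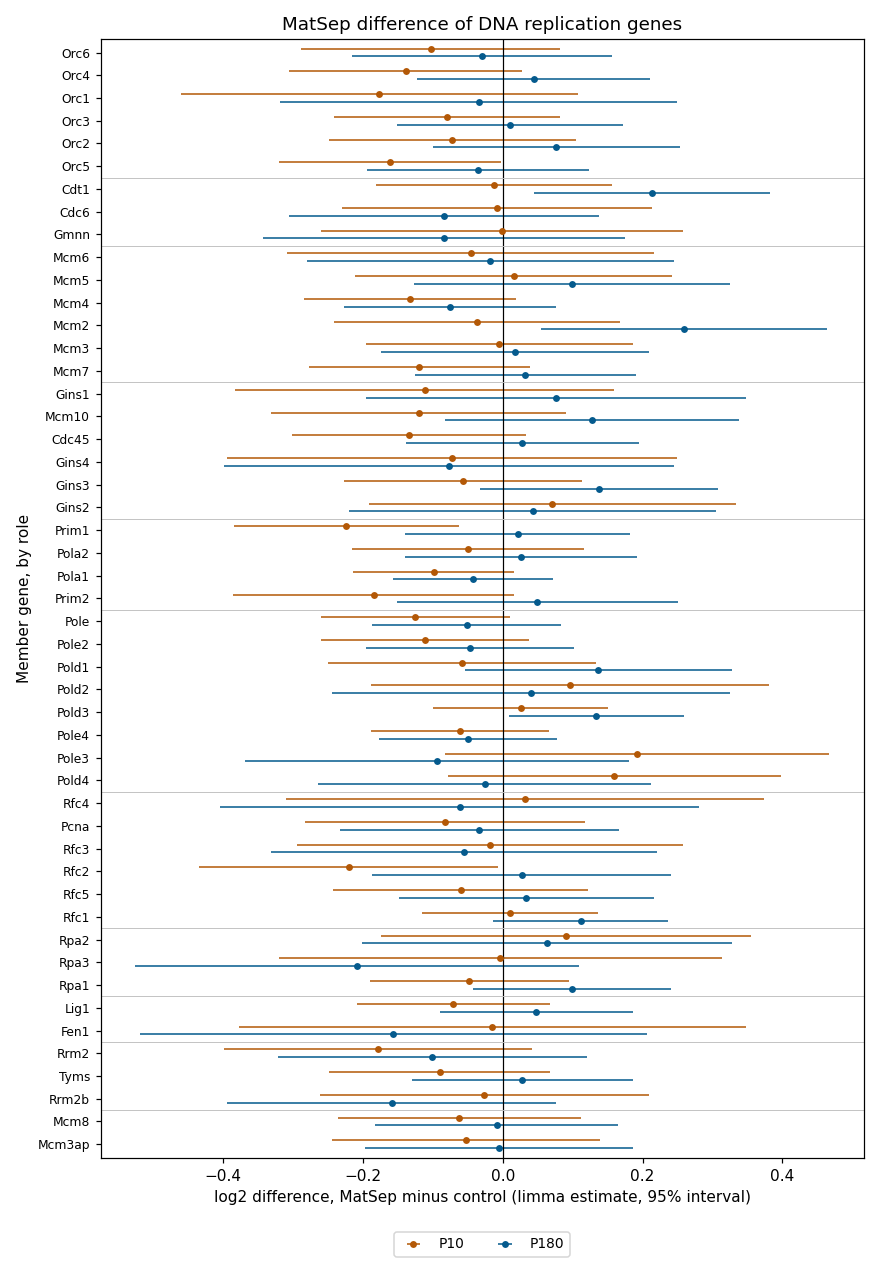
Log2 difference MatSep minus control of each member (limma estimate with 95% interval) at P10 and at P180, ordered by role. Most intervals cross 0, with Prim1 lowest at P10 (-0.22) and Mcm2 highest at P180 (0.26).

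The second transcripts of the 4 genes with 2 fell with age as well, by -1.89 (SE 0.21) for Mcm3, -1.69 (SE 0.17) for Mcm4, -1.75 (SE 0.10) for Prim1 and -1.80 (SE 0.18) for Rrm2 in controls. In adults, 2 of them stood apart from the chosen transcript under MatSep. The second Mcm3 transcript was at 5.17 ± 0.41 in P180 controls and 5.78 ± 0.53 in P180 MatSep rats, a difference of 0.61 (SE 0.21, adjusted p = 0.573), where the chosen transcript differed by 0.02. The second Rrm2 transcript was at 5.94 ± 0.38 and 6.44 ± 0.20, a difference of 0.50 (SE 0.18, adjusted p = 0.594), where the chosen one differed by -0.10. Neither passed, and their groups overlapped. The second Prim1 transcript differed at P10 by -0.23 (SE 0.10, adjusted p = 0.491), close to the chosen one.

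Neonatal rats differed among themselves by the run of their sample numbers. The median log2 intensity of the 49 members was 8.04 to 8.13 in the controls and 8.12 in both MatSep rats of numbers 14 to 17, and 7.80 to 7.95 and 7.85 to 7.91 in those of numbers 19 to 24. With treatment in the model, 17 members were lower (10.4% of all transcripts) and 4 higher (8.75% of all transcripts) in the second run by limma. Fen1 (-0.55, SE 0.07), Gins4 (-0.50, SE 0.08), Rfc3 (-0.43, SE 0.06), Rfc4 (-0.42, SE 0.09) and Rpa2 (-0.42, SE 0.07) were among the 17. Orc2, Orc5, Mcm3ap and Orc3 were the 4 that were higher, by 0.24, 0.22, 0.23 and 0.21. At P180 no member differed between the runs at an adjusted p under 0.05 by limma, and 7 had an unadjusted p under 0.05, as did 12.3% of all transcripts. The adult medians were 6.85 to 7.06 in controls and 6.89 to 7.11 in MatSep rats, so every neonatal run lay above every adult array. What the runs stand for is not in the labels, and since each age has runs of its own, the age difference could not be taken within a run.

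**Figure D5:**
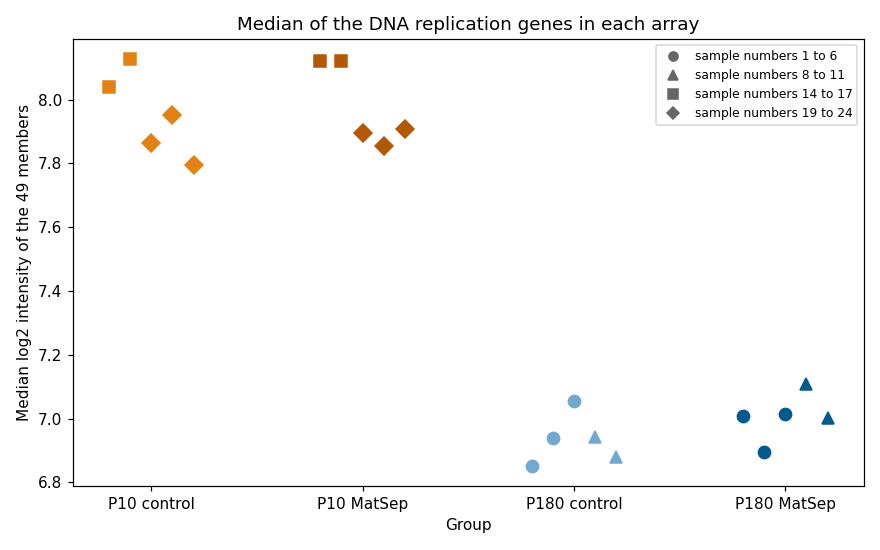
Median log2 intensity of the 49 members in each array, by group, with the run of sample numbers as the marker shape; the vertical axis does not start at 0. Neonates of numbers 14 to 17 sit at 8.04 to 8.13 and those of 19 to 24 at 7.80 to 7.95, while all adults lie between 6.85 and 7.11.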

How the data were processed

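The authors deposited linear signal intensities per transcript, normalized between arrays, 1 array per rat. RMA and Partek are named in the submitters' processing notes, and versions and background filters are not given in the sources used here. RMA borrows strength across arrays and compresses differences of dim transcripts. The deposited tables of the authors' own comparisons (fold changes and p-values) were not used. A second deposited copy, rounded to 2 decimals, differed by at most 0.005.

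Log2 of the intensities was fitted with limma 3.58.1 in R 4.3.3, with 1 mean per group over 20 arrays and 16 residual degrees of freedom. Of 36685 transcripts, 18511 with 1 platform symbol were tested with no filter on low values, with Benjamini-Hochberg adjustment over all of these and a threshold of 0.05. Precision is limited by the number of arrays. The fit was tested on simulated data. Members, lists, tests and the rule for named genes were chosen with earlier results of these data known.

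Full values were given for the 12 most negative and 6 most positive age differences in controls, every member that rose or did not pass, and the 4 smallest p-values of each MatSep comparison where none passed. Values per rat were given for the member with the largest age difference of each role and for the members that rose, and up to 4 genes of each other list were named by p, with Samhd1, Rbl2, Polm, Polrmt and the members listed between runs added after their values were seen. Alternatives were scaling, the variance prior, array weights, a replicate block, a block for runs of sample numbers, filters, other sets of transcripts, thresholds, the second copy, a fit of the compared groups only and leaving out each array. Promoters came from RefSeq (GRCr8), figures from matplotlib 3.10.9.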

Additional observations from a re-analysis of the deposited data

Results flagged for a closer look

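In each group of 5 rats, a member was looked at more closely where 1 array stood far from the other 4, with a gap to the nearest of them of over 0.71 of the group's range. This was so in 7 of 196 groups, and chance alone marks about 1 in 20. In P180 controls, Gins3 was at 6.41 in replicate 5 against 6.18 to 6.24 in the others, and Gmnn was at 5.40 in replicate 1 against 5.84 to 5.91. In P10 MatSep rats, Mcm8 was at 6.09 in replicate 3 against 5.97 to 6.00, Orc4 at 10.26 in replicate 5 against 9.77 to 9.90, and Orc6 at 6.51 in replicate 2 against 6.77 to 6.84. In P180 MatSep rats, Orc3 was at 9.42 in replicate 4 against 9.16 to 9.21, and Rpa3 at 7.25 in replicate 3 against 7.72 to 7.88. The 7 values came from 7 different arrays. No member's MatSep effect differed between the ages by the interaction.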

How the results depend on the processing

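Of 33 alternatives, all but the block for runs of sample numbers gave an age comparison. Each age has runs of its own, so the age difference was not checked against that block. Under the others the counts of members lower at P180 stayed within 1.5 times of 41 in controls and of 37 in MatSep rats. Under all 33, 0 members passed in either MatSep comparison. The interaction, which the fit of the compared groups only does not give, passed for 0 members under the rest. At an adjusted p under 0.01, 39 members were lower and 2 higher in adult controls, and 36 lower and 1 higher in adult MatSep rats. Leaving out 1 array at a time gave 2 to 4 higher and 39 to 41 lower in controls, and 1 to 3 higher and 36 to 38 lower in MatSep rats. The 2 in controls came without P180 control replicate 5 or P10 control replicate 2, and the 1 in MatSep rats without P180 MatSep replicate 4. The median of the members ranged from -0.88 to -0.75 in controls and from -0.82 to -0.78 in MatSep rats. Of 1672 repeats for single genes, 1649 kept direction and side of the threshold, 16 lost the call, 4 gained it and 3 changed sign. Those 3 were the age difference of Pold3 in MatSep rats, which was -0.022 without P180 MatSep replicate 5, -0.011 without P10 MatSep replicate 3 and -0.0057 with array weights, and reached 0.045 without P180 MatSep replicate 3. Pole4 in controls also missed the threshold with array weights (adjusted p = 0.0513) and when only the compared groups were fitted (adjusted p = 0.086), and Pole3 passed in MatSep rats with array weights (adjusted p = 0.0197). The cause was not tested. With the replicate block, 41 members were lower and 4 higher in controls. Same-numbered P10 control and MatSep arrays correlated at 0.09 to 0.62 and P180 ones at -0.21 to 0.21. The MatSep array that correlated best with a control had its number for all P10 replicates but 4, and at P180 only for replicates 4 and 5. Same-numbered arrays of an age also lie in the same run of sample numbers, so these correlations include any difference between the runs. The numbers were not taken as pairs in the main fit, so at P10 a likeness of same-numbered arrays was left out of it. The number of arrays limits what a small MatSep effect could show.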
